A study of Homo sapiens with 12 samples.

Results

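The DNA replication genes described here are 39 listed genes whose products license, fire and copy replication origins, taken by symbol from the values of 12 microarrays of HepG2 tumour spheroids. For each gene the brightest probe set annotated to that symbol alone was used, and all 39 were measured, out of 18404 genes with such a probe set. No measured value entered the choice of probe set other than its mean over all 12 arrays. HepG2 is a human liver tumour cell line, and a spheroid is a ball of cells grown in stirred suspension. The groups were HIF-2α knockdown, HIF-1α knockdown and wild type HepG2, each with 4 arrays of 10 days old spheroids. RNA for each array came from 250 microdissected spheroid cells and was amplified. The design text gives 4 different spheroid experiments, so arrays of a group stand for separate cultures of 1 line. The sample descriptions name the knockdowns sh1alpha and sh2alpha. Beyond these short forms the method of knockdown, and any control construct in wild type cells, are not stated in the labels.

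HIF1A encodes HIF-1α and EPAS1 encodes HIF-2α, transcription factor subunits that accumulate when oxygen is low, as it can be inside a spheroid. Replication starts where the origin recognition complex, CDC6 and CDT1 load a ring of MCM2 to MCM7 onto DNA before S phase, and CDC45 and the GINS complex then turn the ring into a moving helicase. Polymerase α with primase lays down primers, the clamp loader RFC places the sliding clamp PCNA, polymerases δ and ε copy the strands, and RPA covers the single strands between them. Most of these genes are transcribed as cells enter S phase, under E2F transcription factors, and resting hepatocytes of the adult liver hold little of their RNA.

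EPAS1, targeted in HIF-2α knockdown, had a mean of 9.89 there against 11.01 in wild type, which leaves 46.0% of the wild type signal (adjusted p = 0.000206). HIF1A, targeted in HIF-1α knockdown, had a mean of 9.46 there against 10.70 in wild type, or 42.5% of it (adjusted p = 0.00241). The deposited log2 values ran from 5.93 to 15.05, with array medians between 7.29 and 7.41. The lowest values lay higher on 3 arrays (HIF-2α knockdown replicate 4 and wild type replicates 1 and 2), where the 0.1 percentile was 6.33 to 6.35, and these are called the arrays with a raised floor. The 14 measured hepatocyte markers averaged 11.84 to 12.36 on the HIF-2α knockdown arrays, 11.53 to 11.79 on the HIF-1α knockdown arrays and 11.997 to 12.421 on the wild type arrays. The 17 stromal, endothelial and leukocyte markers averaged 7.61 to 7.66 on the HIF-2α knockdown arrays, 7.69 to 7.74 on the HIF-1α knockdown arrays and 7.64 to 7.74 on the wild type arrays. Of the 39 replication genes, 38 had a mean above that of the median gene, 7.69, and RPA2 lay just under it. As each array pools the RNA of 250 microdissected cells, fewer cycling cells and less replication RNA in each cell cannot be told apart.

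The promoters are shown first because E2F sites are the feature this gene group is known for. RefSeq windows on GRCh38.p14, from 250 bases before to 50 after an annotated start, were at hand for 33 of the 39 genes, with 43 windows in all, and those of MCM4, MCM5, GINS4, POLD3, RPA2 and RPA3 are not shown. An E2F site was searched on both strands as TTTCCCGC, TTTGGCGC, TTTCGCGC or TTTGCCGC. It was found in 19 of the 43 windows (44.2%), against 3.31% of all 35116 windows of the table and 4.15% of those of measured genes. Counted by gene it was in 18 of the 33, against 5.51% of the measured genes with a window. The NF-Y box CCAAT was in 60.5% of the member windows, against 34.6% of all windows. A cell cycle homology region, TTTGAA or TTCGAA, was in 4.65%, against 16.4% of all windows. The hypoxia response element core ACGTG was in 25.6% of the member windows, against 21.4% of all windows and 23.2% of those of measured genes. All motifs were searched on both strands, no E2F word holds the letters of another motif, and a match describes letters, not a bound site. The 250 bases before the start follow for the 9 genes with a window among the 10 whose HIF-2α knockdown and HIF-1α knockdown arrays did not overlap, 5′ to 3′ on the gene's strand, with E2F matches in capitals. Where a gene has several windows, the one listed first is shown.
MCM3, chr6:52284743-52284992, minus strand: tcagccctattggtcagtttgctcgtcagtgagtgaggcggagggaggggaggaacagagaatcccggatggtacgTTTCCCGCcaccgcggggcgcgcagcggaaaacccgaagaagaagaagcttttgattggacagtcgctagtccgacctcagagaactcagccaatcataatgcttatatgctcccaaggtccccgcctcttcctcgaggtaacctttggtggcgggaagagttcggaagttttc
MCM6, chr2:135876444-135876693, minus strand: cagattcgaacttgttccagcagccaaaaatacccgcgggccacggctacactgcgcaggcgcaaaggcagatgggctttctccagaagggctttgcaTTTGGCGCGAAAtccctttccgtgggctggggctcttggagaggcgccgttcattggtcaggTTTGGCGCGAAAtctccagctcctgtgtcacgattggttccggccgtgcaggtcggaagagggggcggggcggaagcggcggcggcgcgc
ORC1, chr1:52404424-52404673, minus strand: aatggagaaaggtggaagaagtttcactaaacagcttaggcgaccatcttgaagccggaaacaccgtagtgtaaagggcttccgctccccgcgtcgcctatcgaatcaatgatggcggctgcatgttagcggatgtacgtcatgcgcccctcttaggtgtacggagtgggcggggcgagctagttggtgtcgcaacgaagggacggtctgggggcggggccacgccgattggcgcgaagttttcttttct
RFC2, chr7:74254400-74254649, minus strand: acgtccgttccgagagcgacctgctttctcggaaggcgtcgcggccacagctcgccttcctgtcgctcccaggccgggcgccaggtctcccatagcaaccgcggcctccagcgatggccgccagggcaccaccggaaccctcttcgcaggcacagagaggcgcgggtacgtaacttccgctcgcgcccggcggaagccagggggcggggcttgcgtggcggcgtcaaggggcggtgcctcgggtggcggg
RFC5, chr12:118016453-118016702, plus strand: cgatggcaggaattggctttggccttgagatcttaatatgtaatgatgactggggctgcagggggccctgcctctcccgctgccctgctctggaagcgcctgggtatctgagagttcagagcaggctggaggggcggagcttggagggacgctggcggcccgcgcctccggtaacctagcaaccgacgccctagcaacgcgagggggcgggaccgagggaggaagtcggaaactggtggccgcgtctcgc
POLA2, chr11:65261712-65261961, plus strand: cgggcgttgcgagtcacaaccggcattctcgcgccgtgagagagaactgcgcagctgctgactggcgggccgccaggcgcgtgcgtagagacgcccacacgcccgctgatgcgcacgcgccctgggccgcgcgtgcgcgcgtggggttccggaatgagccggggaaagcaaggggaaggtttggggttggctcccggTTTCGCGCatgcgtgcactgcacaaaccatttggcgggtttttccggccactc
PRIM2, chr6:57314555-57314804, plus strand: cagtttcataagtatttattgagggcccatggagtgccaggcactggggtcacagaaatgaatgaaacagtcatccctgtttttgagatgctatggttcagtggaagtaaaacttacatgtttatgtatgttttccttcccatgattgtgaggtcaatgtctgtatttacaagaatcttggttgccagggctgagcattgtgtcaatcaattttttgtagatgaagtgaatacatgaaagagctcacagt
UHRF1, chr19:4909251-4909500, plus strand: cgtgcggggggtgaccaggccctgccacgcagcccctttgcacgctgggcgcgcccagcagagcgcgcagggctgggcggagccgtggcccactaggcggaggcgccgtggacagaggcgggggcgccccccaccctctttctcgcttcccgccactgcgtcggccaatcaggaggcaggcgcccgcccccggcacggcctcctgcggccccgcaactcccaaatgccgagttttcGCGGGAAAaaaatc
RPA1, chr17:1829755-1830004, plus strand: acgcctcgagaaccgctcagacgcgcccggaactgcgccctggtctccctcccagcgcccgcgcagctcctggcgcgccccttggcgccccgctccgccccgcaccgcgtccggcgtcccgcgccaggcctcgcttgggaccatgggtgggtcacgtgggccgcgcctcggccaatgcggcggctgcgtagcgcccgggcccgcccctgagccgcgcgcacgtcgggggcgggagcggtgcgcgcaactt
MCM6 holds 4 matches as 2 pairs, in each of which a match on the plus strand overlaps one on the minus strand. MCM3 has a further match that spans the start and is therefore not shown whole. The bases shown hold E2F letters for 4 of the 9 genes (MCM3, MCM6, POLA2 and UHRF1) and none of them for the other 5 (ORC1, RFC2, RFC5, PRIM2 and RPA1).

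**Figure D1:**
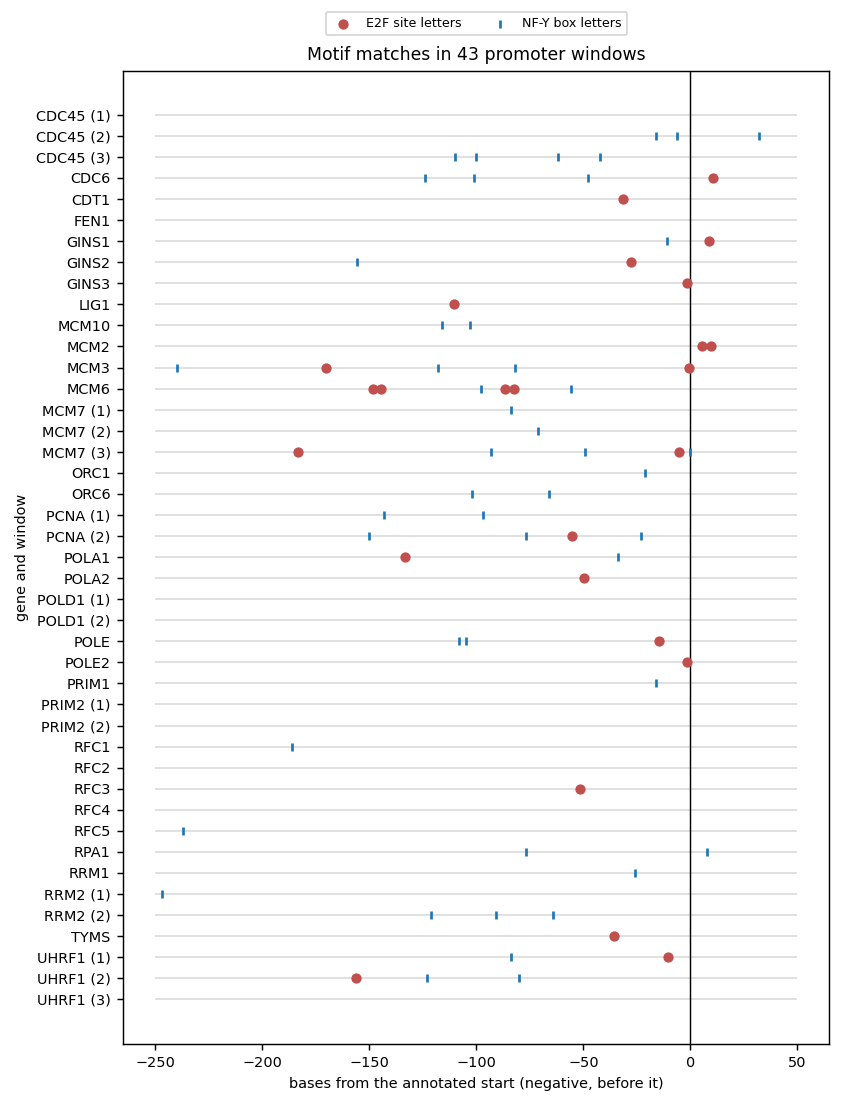
E2F site letters (red circles) and NF-Y box letters (blue bars) in 43 promoter windows of 33 replication genes, placed by their distance in bases from the annotated start, with 1 grey line per window. E2F letters stand in 19 of the windows, 4 times in that of MCM6 alone.

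Between the knockdowns, the replication genes stood higher in HIF-2α knockdown than in HIF-1α knockdown for 34 of 39 genes, against 44.7% of all genes, with a median log2 difference of 0.13 against -0.01 over all genes. RPA2, a subunit of the single strand binding protein RPA, rose by 0.32 (1.25-fold, SE 0.08, adjusted p = 0.0425, limma) and was the 1 gene called at an adjusted p under 0.05. Of all genes 2.77% were called in this comparison, 0.967% as higher and 1.80% as lower, so 1 of 39 is near the share of all genes. ORC1, UHRF1, RFC5, MCM6 and RFC2 came next, with adjusted p between 0.0537 and 0.141. At an unadjusted p under 0.05 there were 13 genes higher and 0 lower, against 5.19% and 8.39% of all genes. For 10 genes every HIF-2α knockdown array lay above every HIF-1α knockdown array, against 3.73% of all genes, and for 0 genes the reverse held, against 5.35%. The 10 were MCM3, MCM6, ORC1, RFC2, RFC5, POLA2, PRIM2, UHRF1, RPA1 and RPA2. No difference between the knockdowns exceeded 1.29-fold.

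In HIF-2α knockdown against wild type no replication gene was called by limma, against 0.788% of all genes called, 0.478% as higher and 0.310% as lower. The difference was positive for 33 of 39 genes, against 44.6% of all genes, with a median of 0.09 against -0.01 over all genes, and the sizes ran from -0.09 for CDC45 to 0.31 for CDC6. Among the genes above the median gene, where 38 of the 39 lie, 60.1% were positive. After quantile normalization 23 of the 39 were positive, with a median of 0.02. At an unadjusted p under 0.05 the genes PRIM2, GINS2, CDC6, RFC5, MCM4, POLE2 and ORC1 were higher and 0 were lower, against 8.16% and 3.85% of all genes. PRIM2 was the 1 gene with every HIF-2α knockdown array above every wild type array, against 3.40% of all genes, and for 0 genes the reverse held, against 1.91%.

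In HIF-1α knockdown against wild type no replication gene was called either, against 0.962% of all genes called, 0.815% as higher and 0.147% as lower. The difference was positive for 16 of 39 genes, against 52.0% of all genes, with a median of -0.02 against 0.00 over all genes, and the sizes ran from -0.27 for UHRF1 and MCM7 to 0.24 for GINS2. Among the genes above the median gene 67.1% were positive. After quantile normalization 10 of the 39 were positive, with a median of -0.11. At an unadjusted p under 0.05, GINS2 was higher and MCM7, UHRF1, POLA2 and POLD1 were lower, against 10.3% of all genes higher and 2.98% lower. The groups did not overlap for PRIM2, which was higher, and MCM3, which was lower, against 5.73% and 2.11% of all genes. The comparisons share arrays in pairs, so a high or low array of 1 group enters 2 of them.

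**Figure D2:**
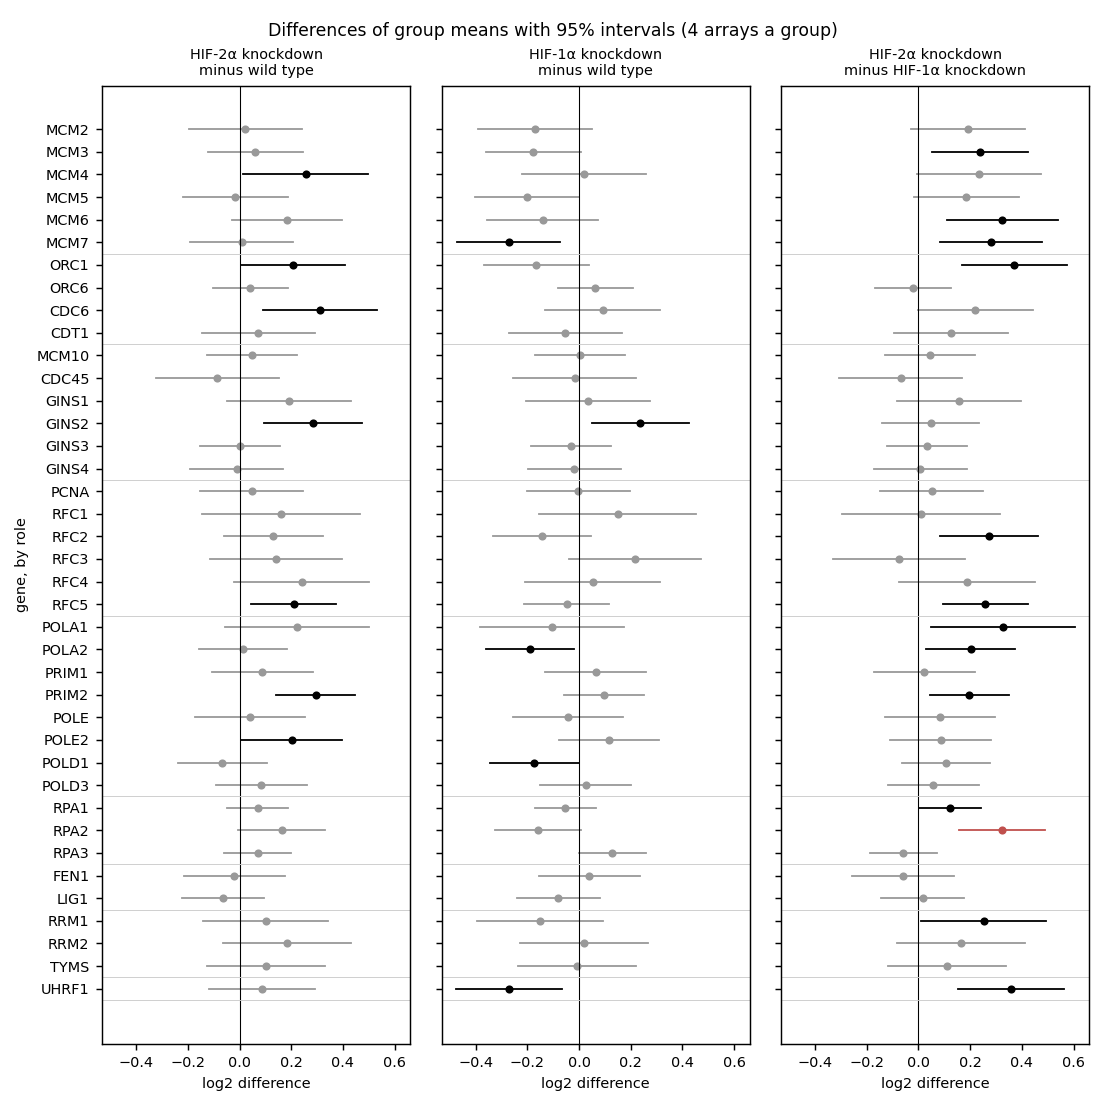
Log2 difference of group means (horizontal axis) for the 39 replication genes by role, with 95% confidence intervals from limma and 4 arrays a group, for HIF-2α knockdown minus wild type, HIF-1α knockdown minus wild type and HIF-2α knockdown minus HIF-1α knockdown. Black marks an unadjusted p under 0.05 and red the 1 call, RPA2 at 0.32 in the right panel, where 34 of 39 points lie right of 0.

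The helicase core is the ring of MCM2 to MCM7 that unwinds DNA at the fork. All 6 were higher in HIF-2α knockdown than in HIF-1α knockdown, with a median difference of 0.24, and 0 of the 6 were called. MCM6 had log2 values of 9.05, 9.55, 9.08 and 9.08 on the HIF-2α knockdown arrays, 8.74, 8.89, 8.86 and 8.97 on those of HIF-1α knockdown and 9.09, 8.91, 8.97 and 9.06 on the wild type arrays. All HIF-2α knockdown arrays lay above the HIF-1α knockdown arrays, and replicate 2 stood alone at the top. The difference between the knockdowns was 0.32 (SE 0.10, adjusted p = 0.119). The values of MCM3 were 10.97, 11.45, 11.02 and 11.10 in HIF-2α knockdown, 10.90, 10.92, 10.92 and 10.85 in HIF-1α knockdown and 11.12, 10.99, 11.09 and 11.08 in wild type. MCM3 was thus lower on every HIF-1α knockdown array than on any other array. It differed by 0.24 (SE 0.09, adjusted p = 0.205) between the knockdowns and by -0.18 (SE 0.09, adjusted p = 0.410) between HIF-1α knockdown and wild type. For MCM7 the arrays gave 10.88, 11.28, 11.11 and 11.15 in HIF-2α knockdown, 10.81, 10.81, 10.94 and 10.74 in HIF-1α knockdown and 11.18, 10.87, 11.23 and 11.11 in wild type. HIF-2α knockdown replicate 1 and wild type replicate 2 fell among the HIF-1α knockdown values of MCM7. The difference was 0.28 (SE 0.09, adjusted p = 0.151) between the knockdowns, -0.27 (SE 0.09, adjusted p = 0.182) for HIF-1α knockdown against wild type and 0.01 (SE 0.09, adjusted p = 0.985) for HIF-2α knockdown against wild type.

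MCM4 had the largest difference of the 6 between HIF-2α knockdown and wild type. MCM4 had log2 values of 10.50, 10.85, 10.56 and 10.43 on the HIF-2α knockdown arrays, 10.37, 10.35, 10.44 and 10.24 on those of HIF-1α knockdown and 10.38, 10.02, 10.59 and 10.33 on the wild type arrays. The wild type arrays spread widely, from 10.02 in replicate 2 to 10.59 in replicate 3, and overlapped both knockdowns. The difference was 0.26 (SE 0.11, adjusted p = 0.377) for HIF-2α knockdown against wild type and 0.02 (SE 0.11, adjusted p = 0.967) for HIF-1α knockdown against wild type. The values of MCM5 were 9.48, 9.69, 9.80 and 9.68 in HIF-2α knockdown, 9.59, 9.43, 9.49 and 9.39 in HIF-1α knockdown and 9.76, 9.43, 9.64 and 9.89 in wild type. All groups of MCM5 overlapped, with a difference of -0.20 (SE 0.09, adjusted p = 0.381) for HIF-1α knockdown against wild type. MCM2 overlapped in all comparisons, with 0.19 between the knockdowns (SE 0.10) and -0.17 for HIF-1α knockdown against wild type (SE 0.10).

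ORC1, the largest subunit of the origin recognition complex, had the largest difference of all 39 genes between the knockdowns. The values of ORC1 were 9.16, 9.60, 9.26 and 9.10 in HIF-2α knockdown, 8.94, 8.96, 8.93 and 8.80 in HIF-1α knockdown and 8.95, 9.07, 9.17 and 9.11 in wild type. All HIF-2α knockdown arrays were above all HIF-1α knockdown arrays, while wild type replicate 3 lay 0.07 above the lowest HIF-2α knockdown array. The difference was 0.37 (SE 0.09, adjusted p = 0.0537) between the knockdowns and 0.21 (SE 0.09, adjusted p = 0.403) for HIF-2α knockdown against wild type. CDC6 is the ATPase that brings MCM rings to the origin, and had the largest difference of the 39 genes between HIF-2α knockdown and wild type. CDC6 had log2 values of 10.51, 10.97, 10.54 and 10.36 on the HIF-2α knockdown arrays, 10.36, 10.39, 10.39 and 10.36 on those of HIF-1α knockdown and 10.20, 10.27, 10.44 and 10.23 on the wild type arrays. The 4 HIF-1α knockdown values lie within 0.03 of one another, while HIF-2α knockdown replicate 2 is 0.44 above the next array of its group. CDC6 differed by 0.31 (SE 0.10, adjusted p = 0.209) between HIF-2α knockdown and wild type and by 0.22 (SE 0.10, adjusted p = 0.375) between the knockdowns. CDT1, the partner of CDC6 in loading, differed by 0.13 between the knockdowns (SE 0.10), and ORC6, the smallest origin subunit, by -0.02 (SE 0.07), both with overlapping groups.

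The genes that activate the helicase differed little between the knockdowns, with a median of 0.04 over MCM10, CDC45 and the 4 GINS genes. GINS2 is a subunit of the GINS complex. GINS2 had log2 values of 11.60, 11.43, 11.16 and 11.35 on the HIF-2α knockdown arrays, 11.35, 11.41, 11.35 and 11.25 on those of HIF-1α knockdown and 11.06, 10.95, 11.25 and 11.14 on the wild type arrays. Wild type replicate 3 lay above the lowest array of each knockdown, and the other wild type arrays lay below all knockdown arrays. The difference was 0.28 (SE 0.09, adjusted p = 0.170) for HIF-2α knockdown and 0.24 (SE 0.09, adjusted p = 0.232) for HIF-1α knockdown, each against wild type. For GINS1 the arrays gave 11.06, 11.19, 11.02 and 10.95 in HIF-2α knockdown, 10.83, 10.90, 11.02 and 10.84 in HIF-1α knockdown and 10.76, 10.60, 11.25 and 10.84 in wild type. For GINS1 the wild type group held both the lowest and the highest value of all 12 arrays. Its difference was 0.03 for HIF-1α knockdown and 0.19 for HIF-2α knockdown against wild type, and 0.16 and 0.32 without wild type replicate 3. CDC45, the factor that joins GINS on the ring, differed by -0.07 between the knockdowns, MCM10, which triggers unwinding, by 0.04, GINS3 by 0.03 and GINS4 by 0.01, with SE of 0.11, 0.08, 0.07 and 0.08.

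PCNA is the ring that holds polymerases to the template, and RFC1 to RFC5 form the loader that opens it. All 6 were positive in HIF-2α knockdown against wild type, with a median of 0.15 (5 of 6 and 0.08 after quantile normalization), and 0 were called. RFC5 had log2 values of 9.57, 9.93, 9.62 and 9.71 on the HIF-2α knockdown arrays, 9.40, 9.42, 9.53 and 9.44 on those of HIF-1α knockdown and 9.49, 9.38, 9.61 and 9.51 on the wild type arrays. HIF-2α knockdown values of RFC5 all lay above those of HIF-1α knockdown, while wild type replicate 3 reached into the HIF-2α knockdown range. It differed by 0.26 (SE 0.08, adjusted p = 0.106) between the knockdowns and by 0.21 (SE 0.08, adjusted p = 0.262) between HIF-2α knockdown and wild type. The values of RFC2 were 10.18, 10.40, 10.24 and 10.20 in HIF-2α knockdown, 10.03, 10.01, 10.05 and 9.83 in HIF-1α knockdown and 10.22, 9.87, 10.30 and 10.12 in wild type. The knockdowns did not overlap for RFC2, and the wild type values reached into both. RFC2 differed by 0.27 (SE 0.09, adjusted p = 0.141) between the knockdowns.

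The differences of RFC1, RFC3 and RFC4 between HIF-2α knockdown and wild type leaned on a single array. RFC1 had log2 values of 10.45, 10.83, 10.09 and 10.25 on the HIF-2α knockdown arrays, 10.08, 10.58, 10.39 and 10.51 on those of HIF-1α knockdown and 10.24, 10.31, 10.35 and 10.08 on the wild type arrays. The values of RFC1 in HIF-2α knockdown ran over 0.74 log2 units, from replicate 3 to replicate 2. The values of RFC4 were 10.09, 10.61, 10.05 and 10.05 in HIF-2α knockdown, 10.06, 10.09, 9.94 and 9.95 in HIF-1α knockdown and 10.00, 9.88, 10.20 and 9.75 in wild type. Without HIF-2α knockdown replicate 2 the other 3 arrays of that group lay within 0.04 of each other for RFC4. RFC4 differed by 0.24 between HIF-2α knockdown and wild type (SE 0.12), and by 0.10 without that array. RFC1 differed by 0.16 (SE 0.14), and by 0.02 without it. RFC3 differed by 0.14 between HIF-2α knockdown and wild type, and by 0.03 without it. Between the knockdowns RFC3 was -0.08 with all arrays (SE 0.12), and further from 0, at -0.19, without that array. PCNA differed by 0.05 between the knockdowns (SE 0.09) and by 0.05 and -0.00 for HIF-2α and HIF-1α knockdown against wild type.

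PRIM2, the large primase subunit, had the smallest p of the 39 genes in HIF-2α knockdown against wild type. PRIM2 had log2 values of 8.79, 9.12, 8.77 and 8.86 on the HIF-2α knockdown arrays, 8.62, 8.72, 8.66 and 8.75 on those of HIF-1α knockdown and 8.59, 8.54, 8.61 and 8.62 on the wild type arrays. Each HIF-2α knockdown array exceeded each HIF-1α knockdown array, at the narrowest by 0.02. The HIF-1α knockdown arrays in turn exceeded the wild type arrays, at the narrowest by 0.0022. The difference was 0.29 (SE 0.07, adjusted p = 0.0810) for HIF-2α knockdown against wild type, 0.20 (SE 0.07, adjusted p = 0.205) between the knockdowns and 0.10 (SE 0.07, adjusted p = 0.648) for HIF-1α knockdown against wild type. PRIM1, the catalytic primase subunit, differed by only 0.09 and 0.06 for HIF-2α and HIF-1α knockdown against wild type (SE 0.09), with overlapping groups.

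POLA1 is the catalytic and POLA2 the regulatory subunit of polymerase α. The values of POLA1 were 9.30, 9.79, 9.15 and 9.26 in HIF-2α knockdown, 8.78, 9.16, 8.95 and 9.29 in HIF-1α knockdown and 9.10, 9.26, 9.08 and 9.16 in wild type. POLA1 ran from 8.78 to 9.29 within HIF-1α knockdown and reached 9.79 in HIF-2α knockdown replicate 2. For POLA2 the arrays gave 8.50, 8.66, 8.63 and 8.58 in HIF-2α knockdown, 8.41, 8.29, 8.43 and 8.43 in HIF-1α knockdown and 8.59, 8.34, 8.62 and 8.77 in wild type. The knockdowns did not overlap for POLA2, and wild type ran from within the HIF-1α knockdown range to above the highest HIF-2α knockdown array. POLA2 differed by 0.20 (SE 0.08, adjusted p = 0.259) between the knockdowns and by -0.19 (SE 0.08, adjusted p = 0.310) between HIF-1α knockdown and wild type. POLA1 differed by 0.33 (SE 0.13, adjusted p = 0.259) between the knockdowns, and by 0.19 without HIF-2α knockdown replicate 2.

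POLE2 is an accessory subunit of polymerase ε, and POLD1 is the catalytic subunit of polymerase δ. POLE2 had log2 values of 9.39, 9.73, 9.29 and 9.37 on the HIF-2α knockdown arrays, 9.19, 9.33, 9.42 and 9.50 on those of HIF-1α knockdown and 9.17, 9.21, 9.29 and 9.30 on the wild type arrays. The difference of POLE2 was 0.20 (SE 0.09, adjusted p = 0.391) for HIF-2α knockdown against wild type, where the highest wild type array exceeded the lowest HIF-2α knockdown array by 0.0095. The values of POLD1 were 7.99, 7.97, 8.18 and 8.01 in HIF-2α knockdown, 8.04, 7.87, 7.89 and 7.93 in HIF-1α knockdown and 8.06, 7.97, 8.04 and 8.35 in wild type. Wild type replicate 4 was the highest POLD1 array, and the other 11 arrays lay between 7.87 and 8.18. POLD1 differed by -0.17 (SE 0.08, adjusted p = 0.370) between HIF-1α knockdown and wild type, and by -0.07 between HIF-2α knockdown and wild type (SE 0.08). POLE, the catalytic subunit of polymerase ε, and POLD3, an accessory subunit of polymerase δ, overlapped in all comparisons and differed by 0.08 and 0.06 between the knockdowns.

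RPA covers single stranded DNA as a complex of RPA1, RPA2 and RPA3. RPA2 had log2 values of 7.63, 7.89, 8.03 and 7.84 on the HIF-2α knockdown arrays, 7.62, 7.43, 7.56 and 7.49 on those of HIF-1α knockdown and 7.65, 7.61, 7.76 and 7.71 on the wild type arrays. All HIF-2α knockdown arrays were above all HIF-1α knockdown arrays by a gap of 0.01 at its narrowest, between replicate 1 of each, and wild type lay between the group means. RPA2 differed by 0.16 (SE 0.08, adjusted p = 0.429) between HIF-2α knockdown and wild type and by -0.16 (SE 0.08, adjusted p = 0.411) between HIF-1α knockdown and wild type. Its call between the knockdowns held in 3 of 12 fits that left out 1 array and was lost in 9, with differences of 0.26 to 0.40 and adjusted p of 0.00862 to 0.137. The adjusted p was 0.0920, 0.107 and 0.105 without HIF-2α knockdown replicates 2, 3 and 4. It was 0.0550, 0.137, 0.104 and 0.109 without HIF-1α knockdown replicates 1, 2, 3 and 4, and 0.0617 and 0.0550 without wild type replicates 1 and 4. The call was also lost with each array centred on its median (adjusted p = 0.0551), with only the 2 knockdowns fitted (0.0778), without the 3 arrays with a raised floor (0.158) and under quantile normalization without HIF-2α knockdown replicate 2 (0.0628). RPA2, with a mean of 7.685, is not tested where genes up to the median gene (7.694) are left out, and there the 1 call is ORC1 (adjusted p = 0.0499).

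RPA1, the large subunit, was also higher on every HIF-2α knockdown array than on any HIF-1α knockdown array, by a smaller 0.12 (SE 0.06, adjusted p = 0.348). For RPA3 the arrays gave 8.23, 8.22, 8.16 and 8.17 in HIF-2α knockdown, 8.26, 8.26, 8.30 and 8.20 in HIF-1α knockdown and 8.26, 7.97, 8.17 and 8.11 in wild type. RPA3, the small subunit, overlapped in all comparisons. It differed by 0.13 (SE 0.06, adjusted p = 0.378) between HIF-1α knockdown and wild type, where wild type replicate 2 lay at 7.97, and by -0.06 between the knockdowns (SE 0.06). Whether the subunits differed from one another in their change was not tested.

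FEN1, which trims the flaps of lagging strand fragments, and LIG1, the ligase that joins them, were negative in HIF-2α knockdown against wild type, at -0.02 and -0.06 (SE 0.09 and 0.07), with overlapping groups. RRM1 and RRM2, the subunits of ribonucleotide reductase, and TYMS, thymidylate synthase, make deoxynucleotides. RRM1 had log2 values of 10.42, 10.93, 10.37 and 10.48 on the HIF-2α knockdown arrays, 10.13, 10.37, 10.29 and 10.39 on those of HIF-1α knockdown and 10.32, 10.40, 10.62 and 10.46 on the wild type arrays. The values of RRM2 were 10.19, 10.63, 10.03 and 10.02 in HIF-2α knockdown, 9.95, 10.20, 10.07 and 9.98 in HIF-1α knockdown and 10.06, 10.09, 10.11 and 9.88 in wild type. Both had their highest value on HIF-2α knockdown replicate 2, and the other arrays of that group lay within the wild type range for RRM1 and up to 0.08 above it for RRM2. RRM1 differed by 0.25 (SE 0.11, adjusted p = 0.338) between the knockdowns, and by 0.13 without that array. RRM2 differed by 0.16 (SE 0.11, adjusted p = 0.650), and by 0.03 without it. TYMS differed by 0.11 between the knockdowns (SE 0.11) and was 11.81 on that array, against 11.37 to 11.41 on the other arrays of its group.

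UHRF1 brings the maintenance methyltransferase to freshly copied DNA. The values of UHRF1 were 9.98, 9.92, 10.08 and 9.92 in HIF-2α knockdown, 9.83, 9.65, 9.60 and 9.39 in HIF-1α knockdown and 10.12, 9.72, 9.83 and 9.89 in wild type. The 4 HIF-2α knockdown values lay within 0.16 of one another and above all HIF-1α knockdown values, which ran from 9.39 to 9.83. UHRF1 differed by 0.36 (SE 0.10, adjusted p = 0.0648) between the knockdowns, by -0.27 (SE 0.10, adjusted p = 0.198) between HIF-1α knockdown and wild type and by 0.09 (SE 0.10, adjusted p = 0.796) between HIF-2α knockdown and wild type. Of the 8 genes with the smallest p between the knockdowns, UHRF1 and RPA2 had their highest HIF-2α knockdown value on replicate 3 and the other 6 on replicate 2. UHRF1 has another, dimmer probe set with a mean of 7.05, and the mean of both differed by 0.17 between the knockdowns (adjusted p = 0.339).

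**Figure D3:**
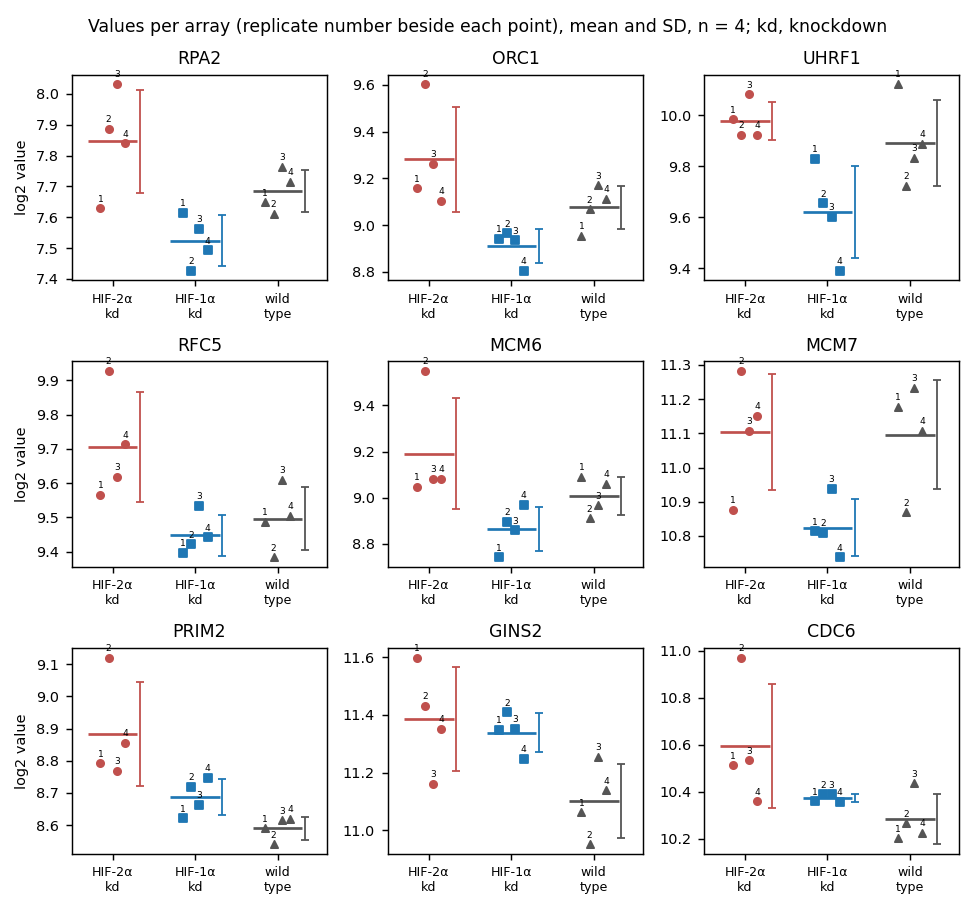
Log2 values (vertical axis) of 9 replication genes on each array of HIF-2α knockdown, HIF-1α knockdown and wild type, with the replicate number at each point, a line at the group mean and a bar of 1 SD (n = 4). Replicate 2 is the top HIF-2α knockdown point for ORC1, RFC5, MCM6, MCM7, PRIM2 and CDC6, but not for RPA2, UHRF1 or GINS2.

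A single array carried much of the spread. HIF-2α knockdown replicate 2 held the highest of the 12 values for 23 of the 39 replication genes, against 15.8% of all genes and 28.3% of the genes above the median gene. It also held the lowest value for 1 of the 39 and for 20.7% of all genes, the largest such share of any array. Its array median, 7.29, was the lowest of the 12. The mean over the 39 genes was 9.84 there, against 9.61 to 9.63 on the other HIF-2α knockdown arrays, 9.51 to 9.57 on the HIF-1α knockdown arrays and 9.45 to 9.66 on the wild type arrays. Their median SD within HIF-2α knockdown was 0.161 with it and 0.0760 without it, against 0.0878 in HIF-1α knockdown and 0.132 in wild type. Leaving it out also lowered the median SD in HIF-2α knockdown over all genes, from 0.100 to 0.0814. For the genes above the median gene it fell from 0.140 to 0.109. The mean of 30 mitotic genes was 10.21 on that array, against 9.72 to 9.88 on the others of its group, and the part of this in the result was not tested.

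**Figure D4:**
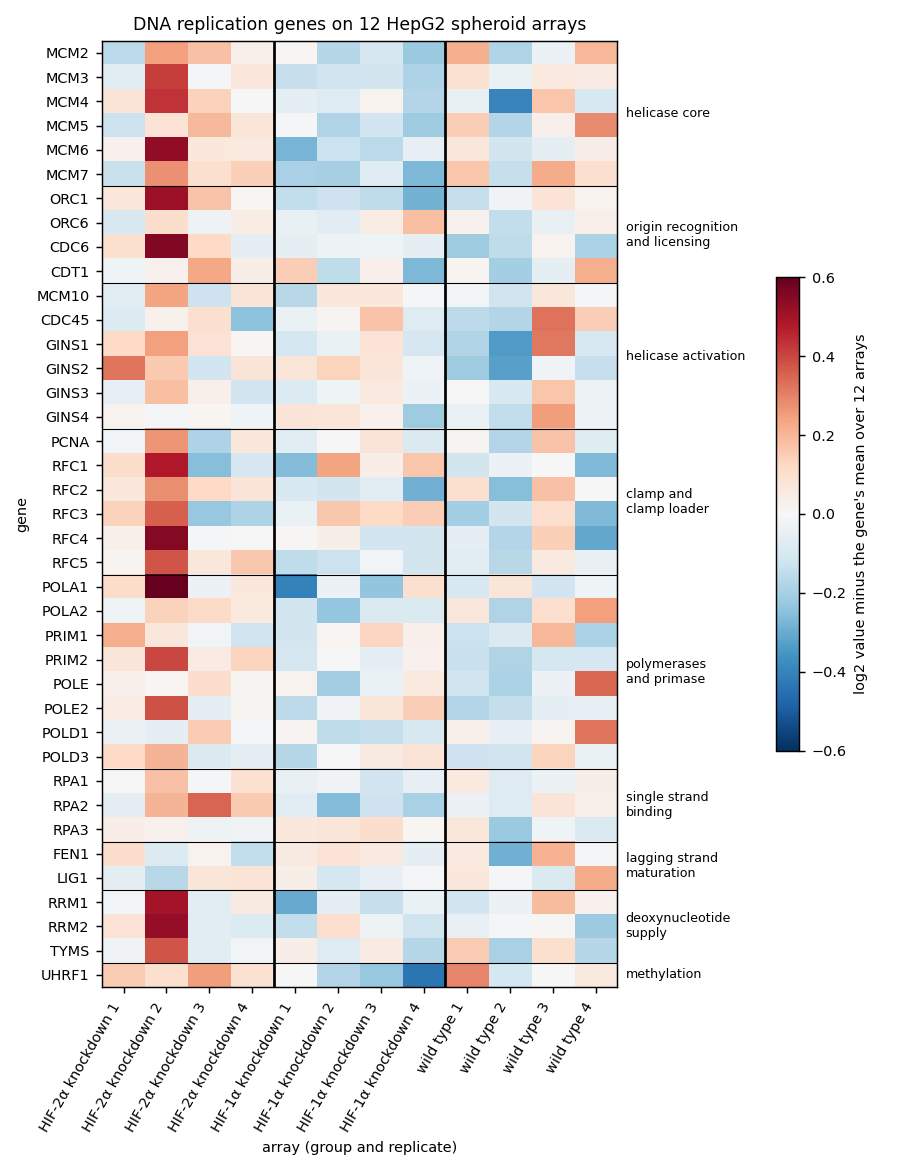
Log2 value of each of the 39 replication genes minus its own mean over 12 arrays, from blue (lower) to red (higher), with genes by role down the page and arrays of HIF-2α knockdown, HIF-1α knockdown and wild type across it. The HIF-2α knockdown replicate 2 column is the reddest and holds the highest value for 23 genes.

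Without HIF-2α knockdown replicate 2, the count of positive genes against wild type was 24 of 39 and the median difference 0.03, against 33 and 0.09 with it. The shares without it were 48.1% of all genes and 54.7% of the genes above the median gene. Between the knockdowns 29 of 39 were positive without it, with a median of 0.09, and 0 genes were called. There the shares were 48.0% of all genes and 37.1% of the genes above the median gene. This array moved the difference most for 18 genes against wild type and for 21 between the knockdowns. The largest moves were those of RFC1, POLA1, RFC4 and RRM2, each by 0.14. The sign changed when some array was left out for 15 genes in HIF-2α knockdown against wild type, for 14 in HIF-1α knockdown against wild type and for 11 between the knockdowns.

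Wild type arrays moved the comparisons with wild type as well. Wild type replicate 3 had the most influence for 12 genes and wild type replicate 2 for 11 in HIF-1α knockdown against wild type. Wild type replicate 2 had the lowest mean over the 39 genes, 9.45, and held the lowest of 12 values for 9 of them and for 27.3% of the genes above the median gene. HIF-1α knockdown replicate 4 also held the lowest value for 9 of them. Its share was 3.84% of all genes and 5.62% of the genes above the median gene. Without wild type replicate 2, 8 genes were lower on every HIF-1α knockdown array than on any wild type array, beside 4.38% of all genes. The share among the genes above the median gene was 6.24%. The 8 were MCM3, MCM5, MCM7, RFC2, POLA2, POLD1, UHRF1 and RPA2. Without wild type replicate 3, 8 genes were higher on every HIF-2α knockdown array than on any wild type array, beside 7.38% of all genes. They included CDC6, GINS1 and GINS2, and the share among the genes above the median gene was 12.5%. In that same fit the median difference of HIF-1α knockdown against wild type was 0.03, positive where it was -0.02 with all arrays.

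**Figure D5:**
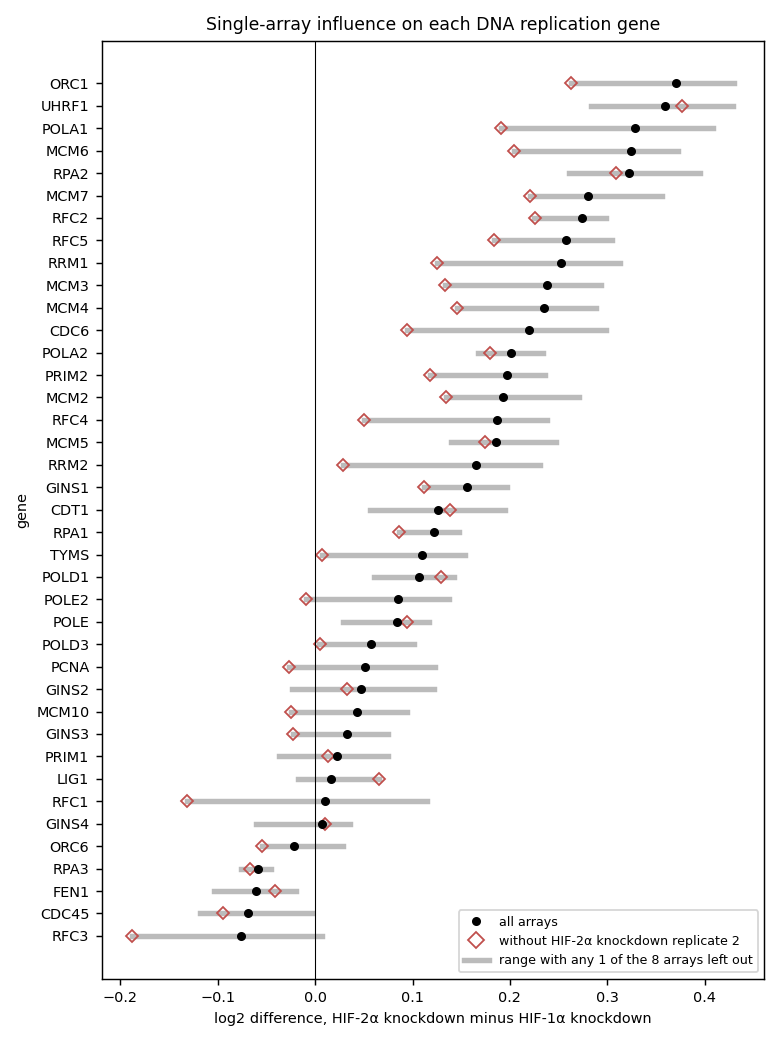
Log2 difference of HIF-2α knockdown minus HIF-1α knockdown (horizontal axis) for 39 replication genes, with all arrays (black points), without HIF-2α knockdown replicate 2 (red diamonds) and the range with any 1 of the 8 arrays left out (grey bars). Without that array 29 of 39 genes stay positive, and RFC1 shifts to -0.13.

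Further genes of the pathway were read from lists that do not hold the 39. Of 20 other licensing and firing genes, 27 other fork and chromatin genes, 12 other deoxynucleotide genes and 32 genes of E2F, RB and cyclin control, 1 was called in any comparison. This was SHMT1, a folate enzyme that feeds thymidylate synthesis, which rose in HIF-2α knockdown against wild type. SHMT1 had log2 values of 8.89, 8.99, 8.89 and 8.81 on the HIF-2α knockdown arrays, 8.77, 8.75, 8.69 and 8.56 on those of HIF-1α knockdown and 8.52, 8.37, 8.57 and 8.57 on the wild type arrays. Every HIF-2α knockdown array was above every HIF-1α knockdown and wild type array. The difference was 0.39 (1.31-fold, SE 0.07, adjusted p = 0.0159) for HIF-2α knockdown against wild type, 0.18 (adjusted p = 0.211) for HIF-1α knockdown against wild type and 0.20 (adjusted p = 0.141) between the knockdowns. The call of SHMT1 was lost without the 3 arrays with a raised floor (adjusted p = 0.101).

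The licensing and firing genes outside the 39, such as ORC5 and the checkpoint adaptor CLSPN, had medians of 0.14 for HIF-2α knockdown and 0.09 for HIF-1α knockdown against wild type (0.07 and 0.03 after quantile normalization), and 0.03 between the knockdowns. ORC5 differed by 0.29 (adjusted p = 0.185) and CLSPN by 0.29 (adjusted p = 0.331) between HIF-2α knockdown and wild type. Among fork genes PCLAF, a PCNA binding protein, differed by 0.37 (adjusted p = 0.0969) between HIF-2α knockdown and wild type, and ASF1A, a histone chaperone, by 0.42 (adjusted p = 0.0920) between HIF-1α knockdown and wild type. In the E2F list TFDP2, a partner of E2F proteins, differed by 0.33 (adjusted p = 0.0700) for HIF-2α knockdown and 0.32 (adjusted p = 0.0714) for HIF-1α knockdown, each against wild type. RBL1, an RB relative that represses E2F targets, differed by 0.30 (adjusted p = 0.0696) between the knockdowns. CDKN1A, a cyclin kinase inhibitor, differed by -0.28 (adjusted p = 0.0664) between the knockdowns. CCND1, cyclin D1, differed by -0.32 (adjusted p = 0.0929) between HIF-2α knockdown and wild type. The E2F list as a whole had medians of 0.06 for HIF-2α knockdown and 0.03 for HIF-1α knockdown, each against wild type. After quantile normalization these were 0.02 and -0.03. Between the knockdowns the median of this list was 0.00 (0.02 after quantile normalization).

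Other lists moved with the groups as well, and their part in the differences above was not tested. Ribosomal proteins, listed as a sign of RNA amplification, averaged 11.79 to 12.32 on the HIF-2α knockdown arrays, 11.66 to 11.96 on the HIF-1α knockdown arrays and 11.97 to 12.46 on the wild type arrays. Of their 27 genes 26 were positive in HIF-2α knockdown against HIF-1α knockdown, with a median of 0.35 (19 positive and 0.15 after quantile normalization), and RPL11 was the 1 called, as higher. In HIF-1α knockdown against wild type 26 were negative, with a median of -0.44 (19 negative and -0.11 after quantile normalization), and RPL11 was called as lower. Mitotic genes had 0 of 30 called in any comparison, with medians of 0.14 for HIF-2α knockdown and 0.13 for HIF-1α knockdown against wild type (0.07 and 0.05 after quantile normalization, with 18 and 20 of 30 positive) and 0.04 between the knockdowns (0.02 after quantile normalization). All 26 hypoxia-induced genes were negative in HIF-2α knockdown against wild type (median -0.24). Of them 7 were called as lower, against 0.310% of all genes. In HIF-1α knockdown against wild type 22 were negative (median -0.19) and 2 were called as lower, against 0.147% of all genes. In HIF-2α against HIF-1α knockdown 17 were negative (median -0.08) and 4 were called as lower, against 1.80% of all genes. Of the 14 hepatocyte markers, 12 were negative in HIF-2α knockdown against wild type (median -0.12, or -0.05 after quantile normalization), where 1 was called, as higher, against the direction of its list. In HIF-1α knockdown against wild type 13 were negative (median -0.41, or -0.13 after quantile normalization) and 2 were called as lower. In HIF-2α against HIF-1α knockdown 12 were positive (median 0.33, or 0.08 after quantile normalization) and 2 were called as higher. Of the stromal, endothelial and leukocyte markers 1 was called as lower in HIF-2α knockdown against wild type, and 0 were called in HIF-1α knockdown. Between the knockdowns 2, CD14 and PDGFRB, were called as lower in HIF-2α knockdown.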

How the data were processed

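Per the labels' protocols, RNA for the 12 Affymetrix arrays came from 250 microdissected cells of HepG2 spheroids and was amplified and biotin-labelled before hybridisation. The authors deposited log2 values for 32321 probe sets. The base was inferred from their range, and their background correction, summarization and normalization are not stated in the labels or the file. The platform annotation gave the gene symbols, 19158 probe sets with 1 symbol, 1388 with several and 11775 with none. Symbols were updated by Entrez identifier from a RefSeq table of GRCh38.p14 (19128 matched, 4 by symbol, 26 kept), and promoters come from RefSeq on the same build. Only probe sets with 1 symbol were used, the brightest for each of 637 genes with several, which left 18404 genes.

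Group means were compared in R 4.3.3 by limma 3.58.1 (lmFit and eBayes, 1 mean per group over 12 arrays), with Benjamini-Hochberg adjustment over 18404 genes and a call below 0.05. SE is limma's moderated standard error, and n is 4 arrays per group. No low values were removed. Each p-value reflects the spread between these cultures alone. The script was tested on simulated data. Every member may be named, with full values for called members, the 8 with the smallest p per comparison and the 6 moved most by leaving out 1 array. Other lists name at most 4 genes by smallest p and called replication genes. The members and lists were chosen with earlier results of these data known. Alternatives were quantile normalization, median centring, array weights, 2-group fits, a replicate block, a level filter, means over probe sets, leaving out the arrays with a raised floor and leaving out each array. Deviations correlated above 0.1 for 5 of 12 pairs of same-numbered arrays and for 12 of 36 pairs with different numbers. The numbers were therefore not taken to pair the arrays.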

Additional observations from a re-analysis of the deposited data

Results flagged for a closer look

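In 3 of 117 groups of 4 arrays (39 genes in 3 groups) 1 array stood apart from the other 3 by Dixon's test at its 95% critical value, and chance flags about 1 in 20 groups. All 3 lay on HIF-2α knockdown replicate 2. MCM6, a helicase subunit, was at 9.55 there, RFC4, a clamp loader subunit, at 10.61 and TYMS, thymidylate synthase, at 11.81. RPA2 differed between the knockdowns, each set against wild type, by 0.32 in the direct test of that difference (adjusted p = 0.0425, limma), with HIF-2α knockdown the higher. That call was lost in 9 of 12 fits that left out 1 array (adjusted p of 0.00862 to 0.137 over the 12), with each array centred on its median (0.0551), with only the 2 knockdowns fitted (0.0778) and without the 3 arrays with a raised floor (0.158).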

How the results depend on the processing

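In HIF-2α knockdown against HIF-1α knockdown, 1 replication gene was called with the deposited values. After quantile normalization 7 were called, MCM4, MCM6, MCM7, ORC1, RFC2, RFC5 and RPA2. Over all 18404 genes the calls rose as well, from 509 to 888. The count was 0 with each array centred on its median, and 0 with only the 2 groups in the fit. It was 0 without the 3 arrays with a raised floor and 3 with array weights (ORC1, UHRF1 and RPA2). Array weights called 980 of all genes in this comparison. Quantile normalization without HIF-2α knockdown replicate 2, chosen after seeing the data, called 3 there (ORC1, RFC2 and RFC5). With only genes above the median gene the count was 1, but this was ORC1, since RPA2 was filtered out. With 1 array left out the count ran from 0 to 3. It was 0 without HIF-2α knockdown replicates 2 or 3, HIF-1α knockdown replicates 2, 3 or 4, or wild type replicate 4. It was 3 without HIF-2α knockdown replicate 1, where 618 of all genes were called. In HIF-1α knockdown against wild type, quantile normalization called 1 (MCM7, lower) and, without HIF-2α knockdown replicate 2, 2 (MCM7 and ORC1, lower), with a median of -0.11 in both. In HIF-2α knockdown against wild type no alternative called a replication gene.

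The replicate numbers were not taken to pair the arrays. Deviations of same-numbered arrays correlated at -0.171 to 0.637, above 0.1 for 5 of 12 pairs, and 3 arrays correlated best with their own number. Those of arrays with different numbers correlated at -0.597 to 0.574, above 0.1 for 12 of 36 pairs. With the replicate block 3 replication genes were called between the knockdowns (ORC1, UHRF1 and RPA2) and 0 in the other comparisons. The calls over all genes with the block are not given for the knockdowns, so these 3 have no share beside them.

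Over all genes, the calls in HIF-2α knockdown against wild type were 145 (88 higher), and 404 (141 higher) after quantile normalization, 72 (34 higher) after centring, 64 with only the 2 groups, 37 without the raised-floor arrays, 221 with quantile normalization without HIF-2α knockdown replicate 2 and 61 to 219 with 1 array left out. In HIF-1α knockdown against wild type they were 177 (150 higher), and 254 (140 higher) after quantile normalization, 85 after centring, 605 with array weights, 396 with only the 2 groups, 22 without the raised-floor arrays, 287 with quantile normalization without HIF-2α knockdown replicate 2 and 50 to 483 with 1 array left out. Between the knockdowns they were 509, and 888 after quantile normalization, 337 after centring, 980 with array weights, 259 without the raised-floor arrays and 211 to 618 with 1 array left out. HIF1A in HIF-1α knockdown against wild type was -1.24 without the raised-floor arrays, with an adjusted p of 0.103. The alternatives for SHMT1 were added after seeing the data. The causes of these changes were not tested. Of the values of single genes under the alternatives, 2480 stayed on their side of the threshold, 23 passed it newly and 14 no longer passed it. Uncalled values that changed sign are counted among the 2480, and 0 called values changed sign. The number of arrays limits the precision, and the files give no counts or detection calls.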
